A study of Arabidopsis thaliana with 12 samples.

Results

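BRC1 (BRANCHED1) peaks far from any gene were examined in Arabidopsis thaliana seedlings. A peak was called distal when its midpoint lay more than 1000 bp from every locus in the RNA tables on chromosomes 1 to 5. This held for 1043 of the 4227 deposited peaks, or 24.7% (95% exact Clopper-Pearson interval 23.4 to 26.0, counting error only). The interval takes peaks as independent, although many share a gap, and it holds no spread between libraries. The rule used position alone and no RNA level. It can pick only genes beside gaps of over 2000 bp between loci, so the RNA values of the neighbouring genes need not be independent of it. The series holds 12 samples in 4 groups of 3. RNA was sequenced from the line GFP:BRC1ind, where estradiol induces a fusion of GFP and BRC1, and from the knock-out brc1-2. Anti-GFP chromatin immunoprecipitation (ChIP) and Input libraries came from GFP:BRC1ind. Seedlings in all 4 groups were 10 days old, carried the label of 10 uM estradiol and were harvested after 5 hours. The 2 RNA groups thus share the estradiol and differ in the transgene and the brc1-2 genotype, whose parts cannot be told apart. The labels name neither the promoter that drives the estradiol receptor nor whether the line is 1 clone, and they do not say whether libraries came from separate cultures, so p-values measure the spread between libraries only.

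BRC1 is a transcription factor of the TCP family that acts in axillary buds and holds back branching. Plant transcription factors bind mostly close to gene starts, but sites farther out, in the gaps between genes, can also act on 1 or both neighbours, and a position alone does not say which. Abscisic acid (ABA), the hormone of drought response and bud dormancy, and the homeodomain-leucine zipper genes HB21, HB40 and HB53 are known from the literature as parts of the BRC1 pathway in buds.

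The targeted gene separated the RNA groups. BRC1 (AT3G18550) had 3370, 3421 and 3625 FPKM (fragments scaled by transcript length and library depth) in induced libraries 1, 2 and 3, and 1.34, 1.66 and 2.20 in brc1-2 libraries 1, 2 and 3. Fragment totals derived from the tables were 33176994 to 53385759 per library, and 20566 to 21555 genes were listed in each. The shoot markers CAB1 and RBCS1A had 8202 to 13920 FPKM in all 6 libraries. The root marker CASP1 had 17.6 to 20.7 FPKM in the induced libraries and 37.5 to 52.0 in brc1-2 (log2 fold change -1.21, limma adjusted p = 0.00404). PIN2 and COBL9, also root markers, were not called, and their groups overlapped (log2 fold changes -0.58 and -0.66, limma adjusted p = 0.168 and 0.28). Over the 3 root markers CASP1, PIN2 and COBL9 the summed FPKM was 31.9 to 34.3 in the induced libraries and 58.4 to 83.0 in brc1-2. The seed marker SESA1 and the flower marker AP3 were listed at 0 in every library. CRU1, OLEO1 and AG reached 5.17, 1.54 and 0.499 FPKM at most. In whole seedlings, fewer cells of a type and less RNA per cell cannot be told apart.

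Distal peaks were spread over all chromosomes and became rarer with distance. Chromosomes 1 to 5 held 265, 167, 193, 160 and 258 of them, between 22.9% and 26.7% of the peaks of each chromosome. Of the 1043, 387 lay up to 1500 bp from the nearest locus, 251 lay past 1500 and up to 2000 bp, 239 lay past 2000 and up to 3000 bp and 166 lay beyond 3000 bp. Only 34 were beyond 5000 bp. The median distance was 1740 bp, with quartiles of 1302 and 2423 bp. Among the nearer peaks, 627 had their midpoint inside a locus, 1839 lay within 500 bp and 718 lay past 500 and up to 1000 bp.

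**Figure D1:**
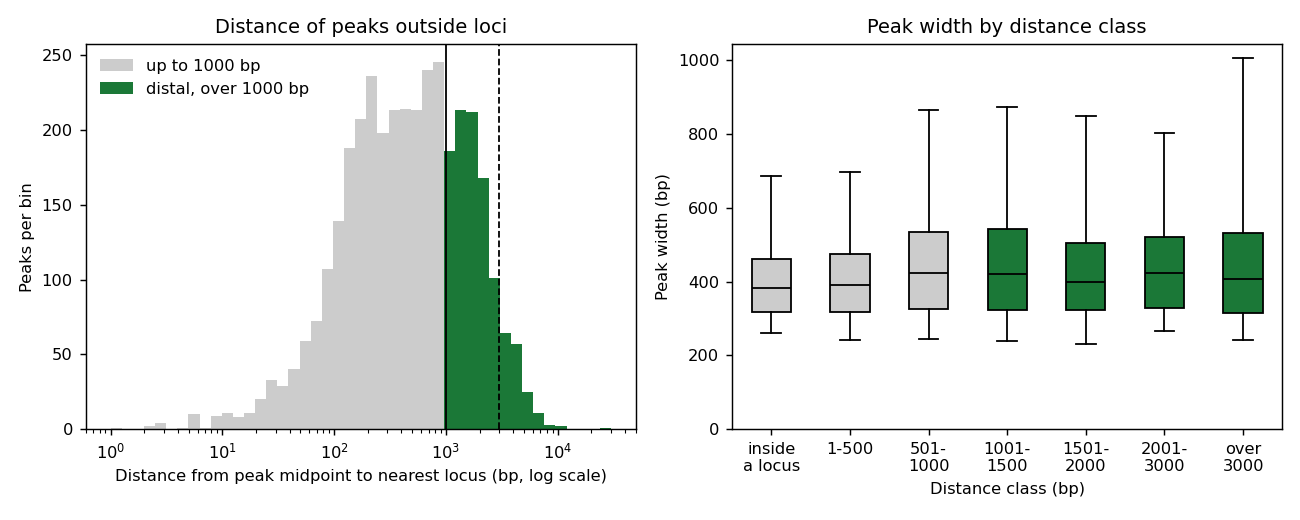
Left, number of peaks per bin against the distance from the peak midpoint to the nearest locus in bp on a log axis, for peaks outside loci, with 1000 bp as a solid line and 3000 bp as a dashed line. Right, peak width in bp by distance class, where the box spans the quartiles, the line is the median and the whiskers reach the 5th and 95th percentiles. The distal peaks (green) form the far shoulder of the distribution, and their median widths of 398 to 424 bp sit close to those of the nearer classes.

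The widths of distal peaks resembled those of nearer peaks in the middle of the distribution and were more often under 100 bp or over 1000 bp. The median width was 410 bp (quartiles 323 and 527) for distal peaks and 394 bp (quartiles 319 and 485) for peaks up to 1000 bp. Peaks narrower than 100 bp made up 1.92% of the distal peaks (20) and 0.66% of the nearer ones (21). Peaks wider than 1000 bp made up 3.16% (33) and 0.942% (30), although the widest peak of the list, at 10233 bp, was a nearer one. Beyond 3000 bp the share wider than 1000 bp was 6.02%, and beyond 5000 bp it was 14.7% (5 of 34). These 5 included peaks of 2510, 1777 and 1065 bp in the gap between AT5G31804 and AT5G31821. Another, of 1895 bp, lay between AT3G33055 and AT3G33058, and neither gap had a tested neighbour. The rise in this share beyond 5000 bp thus rests largely on a few gaps. The list is, by its name, an overlap of peak sets of 2 libraries. The overlap rule is not given, so a width may be that of the shared stretch only. The narrowest distal peak, at chr4:17249601-17249601, was 1 bp wide. Peaks carry no replicate values, and these differences were not tested.

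Distal peaks lay closer to their next peak than the nearer peaks did. The median distance to the next peak of any kind was 2319 bp for distal peaks and 5854.5 bp for peaks up to 1000 bp. Another peak lay within 3000 bp of 55.4% of distal peaks and of 34.6% of the nearer ones. Beyond 3000 bp this share was 66.9%. The surroundings held slightly fewer genes, with a median of 27 loci in the 100 kb around a distal peak and 30 around a nearer one. Only 13 distal peaks lay where fewer than 15 loci were found in that window.

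The peaks at the limits of the rule show how close members and non-members lie. Just past it were chr1:9884685-9885058, 1002 bp from RALFL4 (AT1G28270), chr2:16820773-16821089, 1003 bp from AT2G40270, and chr2:6454496-6454852, 1004 bp from GH3.1 (AT2G14960). Just inside it were chr5:8862155-8862571, 1000 bp from DGR2 (AT5G25460), chr3:4887948-4888198, 999 bp from AT3G14560, and chr1:29372752-29373029, 998 bp from TPPB (AT1G78090). Of these 6 genes, GH3.1, a member of the auxin-conjugating GH3 family, was the one past the threshold: it was not listed in the induced libraries and had 2.40, 2.10 and 2.62 FPKM in brc1-2, which is at least 2.19-fold lower against the smallest amount a library lists (limma adjusted p = 0.00824). The other tested genes were AT2G40270, DGR2, AT3G14560 and TPPB, with log2 fold changes of -0.33, -0.06, 0.28 and 0.24. RALFL4 was listed at 0. Measured from its nearer edge instead of its midpoint, a distal peak came within 1000 bp of a locus in 192 cases and overlapped one in 2.

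The farthest peaks sat in stretches where the flanking loci are pseudogenes at 0 in all 6 RNA libraries. The peak chr3:13709941-13710251 lay 29635 bp from AT3G33076 and 29926 bp from AT3G33084, with 3 loci in the surrounding 100 kb. Next came chr4:3977679-3978013, chr4:3976125-3976665 and chr4:3979151-3979738, at 11003, 10759 and 9404 bp, all in the 23212 bp gap between AT4G06708 and AT4G06710. The fifth was chr5:11730293-11730731, 8765 bp from AT5G31821. Its gap of 17712 bp, between AT5G31804 and AT5G31821, held 8 distal peaks, the most of any gap, among them the 2510 bp wide chr5:11727277-11729786. The widest distal peak was chr3:4118970-4121980, at 3011 bp. Its midpoint lay 1408 bp from BRG3 (AT3G12920), although its edge reached into that locus.

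Distal peaks occupied a minority of the gaps that could hold one. A midpoint can be more than 1000 bp from every locus only in a gap of over 2000 bp, and the tables define 7770 such gaps. Of these, 783 (10.1%) held a distal peak: 603 held 1, 136 held 2 and 44 held 3 or more. The occupied gaps had a median length of 4824 bp and the empty ones of 3162 bp. Occupancy was 2.90% for gaps over 2000 and up to 3000 bp, 11.7% up to 5000 bp, 20.6% up to 10000 bp and 28.4% above 10000 bp. Per megabase of sequence that lay over 1000 bp from loci, the 4 classes held 65.7, 72.5, 66.9 and 42.0 distal peaks. The longest gaps were thus the most often occupied and the least densely.

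Distances to the nearer and to the farther gene differ by definition, so they do not show whether peaks lean toward 1 side of a gap. Such a lean was not tested. The nearer gene was at a median of 1740 bp and the gene on the other side at 3472 bp, and the median position was 36.9% of the gap length from the nearer gene. For 416 peaks both flanking loci were within 3000 bp, and for 877 the nearer one was. The tables give no strand, so whether a peak lies before the start or behind the end of a gene was not analysed here. Some gaps are not empty in a later annotation: of 759 gaps compared by gene order with RefSeq TAIR10.1, 248 contained a gene with no row in the tables, of which 210 had a long non-coding RNA and 18 a protein-coding gene. These gaps held 363 of the distal peaks.

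The genes nearest to distal peaks changed in both directions. Together the peaks had 880 different nearest genes, of which 795 are protein-coding, 51 are pseudogenes, 20 are of other types and 14 are not in the reference table. Of the 880, 139 were not listed in any RNA library, 23 were listed below the filter of 1 FPKM in at least 3 libraries, and 718 were tested. Of the tested genes 119 (16.57%) were higher and 108 (15.04%) were lower in the induced line (limma, adjusted p under 0.05). Over all 21038 tested genes 7.37% were higher and 8.86% lower, 16.2% in either direction. At least a 2-fold change was seen in 45 higher and 27 lower of the 718 tested nearest genes. Over all 21038 tested genes these numbered 345 (1.64%) and 602 (2.86%). The groups did not overlap in 53.5% of the tested nearest genes (384) and in 38.9% of all genes. The median log2 fold change of the nearest genes was 0.02, beside 0.04 for all tested genes.

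Gaps without a distal peak give a second background. Of 6319 tested genes beside a gap of over 2000 bp with no distal peak, 6.33% were higher and 13.0% lower. The lower share beside distal peaks, 15.04%, was therefore close to that of genes beside long gaps in general, while the higher share was above it. The median level of the tested genes was 15.5 FPKM beside distal peaks, 12.1 FPKM beside gaps without them and 14.1 FPKM over all tested genes. Leaving out induced library 1 gave 74 higher and 47 lower nearest genes. The lower count was also 48 without induced library 2, 60 without induced library 3, 72 without brc1-2 library 1 and 63 without brc1-2 library 2. Without induced library 1 the higher shares were 10.35% for nearest genes and 3.43% for all genes. The lower shares in that fit were 6.57% and 4.27%, with 6.76% for genes beside gaps without a distal peak. These counts describe the neighbours, which were not tested as a set.

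**Figure D2:**
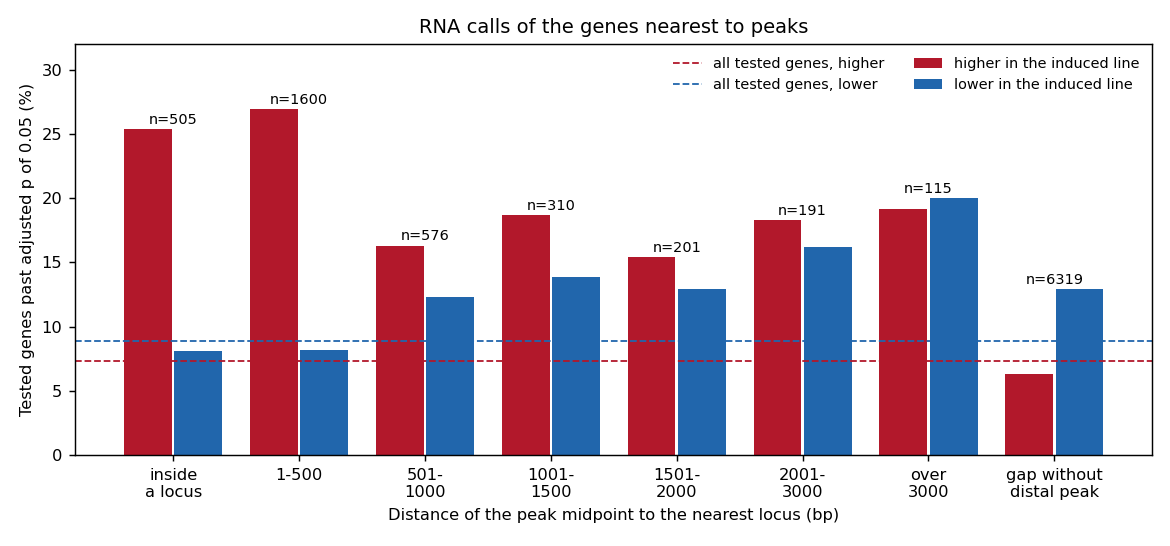
Percentage of tested nearest genes past a limma adjusted p of 0.05, higher (red) or lower (blue) in the induced line, by the distance of the peak midpoint to the nearest locus in bp; n is the number of tested genes, the dashed lines are the shares over all tested genes, and the last pair stands for genes beside gaps of over 2000 bp without a distal peak. The red bars of the 4 distal classes lie between 15.42% and 19.13%, and the blue bars rise to 20% beyond 3000 bp.

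Compared with nearer peaks, the mix of directions differed mainly from that of peaks inside loci or within 500 bp. Among 2497 tested genes nearest to peaks up to 1000 bp, 23.43% were higher and 9.29% lower, with a median log2 fold change of 0.12. Higher and lower shares were 25.35% and 8.12% for peaks inside loci and 26.94% and 8.19% for those within 500 bp. For peaks past 500 and up to 1000 bp, 16.32% of 576 tested genes were higher and 12.33% lower, with a median of 0.06. These values were near the 16.57%, 15.04% and 0.02 of distal peaks. Within the distal range, the higher share was 18.71% up to 1500 bp, 15.42% past that and up to 2000 bp, 18.32% up to 3000 bp and 19.13% beyond 3000 bp. The lower shares in the same classes were 13.87%, 12.94%, 16.23% and 20%. Past 3000 bp, 22 of 115 tested nearest genes were higher and 23 lower, so rises did not outnumber falls there. Leaving out induced library 1 brought the class past 3000 bp to 10.53% higher and 6.14% lower. In that fit 3.43% of all tested genes were higher and 4.27% lower.

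Many nearest genes also had a second peak close by, and 68 of the 119 rises lay with them. A peak midpoint inside the locus or within 1000 bp of it was present for 239 of the 718 tested nearest genes, and 28.45% of these were higher and 13.81% lower. Of the other 479, whose closest peak was distal, 10.65% were higher and 15.66% lower. The median log2 fold changes were 0.16 and -0.05. Among genes beside gaps without a distal peak, 17.36% of those with a close peak were higher, against 3.93% of those with none, and 11.43% and 13.29% were lower. These gaps were counted with both neighbours. With both neighbours of distal peaks counted as well, 9.37% of 843 tested genes with no close peak were higher and 14.95% lower. For nearest genes with no close peak, a distal peak went with a higher share of 10.65% against 3.93% and a lower share of 15.66% against 13.29%. Without induced library 1 these became 4.61% against 1.28% higher and 7.97% against 7.0% lower, and the share of rises among genes with a close peak became 21.85%.

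**Figure D3:**
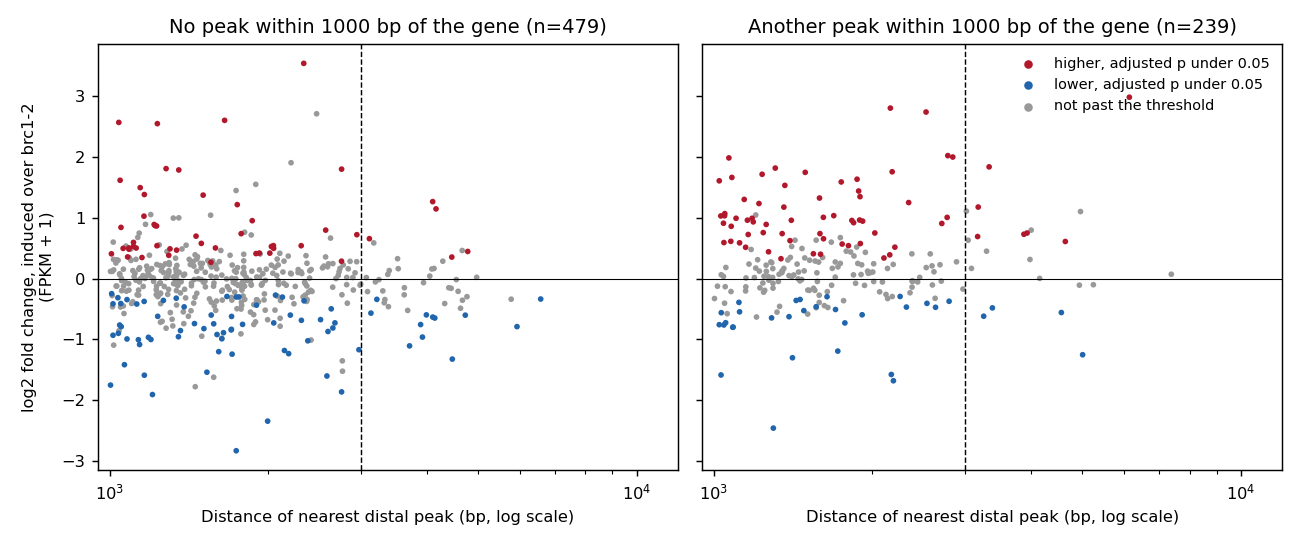
Each point is a tested gene nearest to a distal peak, placed by the distance in bp (log axis) of its nearest distal peak and by its log2 fold change in FPKM + 1, induced over brc1-2. Genes whose closest peak is distal are on the left (n = 479) and genes with another peak within 1000 bp on the right (n = 239); red and blue points passed a limma adjusted p of 0.05, and the dashed line marks 3000 bp. Red points make up 28.45% of the right panel and 10.65% of the left.

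Calls were also counted by the number and the width of the peaks in a gap. Flanking genes of gaps with 1 distal peak were higher in 13.75% and lower in 13.32% of 931 tested genes. For gaps with 2 distal peaks the shares were 17.17% and 16.74% of 233 genes, and for gaps with 3 or more they were 33.8% and 11.27% of 71 genes. Among flanking genes with no peak within 1000 bp, the higher shares were 8.9% of 674 genes for gaps with 1 distal peak, 8.39% of 143 for gaps with 2 and 22.5% of 40 for gaps with 3 or more. The lower shares were 14.69%, 15.38% and 15%. Without a close peak, gaps with 1 and 2 distal peaks thus had nearly the same higher share. Leaving out induced library 1 lowered the higher shares of the 3 gap classes to 8.97%, 11.64% and 14.29%, and that of the 40 genes to 5.13%. Nearest genes of distal peaks at or above the median width of all peaks, 398 bp, were higher in 22.06% and lower in 13.43% of cases, and those of narrower peaks in 12.19% and 17.45%. Without induced library 1 the higher shares by width were 13.04% and 8.03%.

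The 12 largest rises beside a distal peak no farther than 3000 bp were of genes with different known roles. GA20OX1 (AT4G25420), which carries out late steps of gibberellin synthesis, had 26.5, 27.2 and 28.2 FPKM in the induced libraries, against 1.60, 1.66 and 1.08 in brc1-2. All induced libraries lay above all brc1-2 libraries, with a log2 fold change of 3.54 (SE 0.12, limma adjusted p = 0.000186). Its only distal peak, chr4:12994554-12995034, lay 2336 bp from the locus, and no other peak was within 1000 bp of the gene. LBD42 (AT1G68510), a LOB-domain transcription factor, had 14.02, 12.8 and 13.0 FPKM in the induced libraries and was listed at 0 in brc1-2. Against the smallest amount those libraries list, its rise was at least 36.0-fold (limma adjusted p = 0.000186). Its peak, chr1:25703857-25704147, lay 2880 bp away and was closer to AT1G68500 (1491 bp), which was also higher (log2 fold change 1.75, limma adjusted p = 0.0014).

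AT2G41230 and KDR were also among the 12. AT2G41230, named ORS1 in RefSeq and known as ORGAN SIZE RELATED 1, had 48.1, 71.5 and 53.2 FPKM in the induced libraries, against 4.75, 14.04 and 8.95 in brc1-2 (log2 fold change 2.60, SE 0.36, limma adjusted p = 0.00709). Its distal peak, chr2:17193125-17193420, lay 1653 bp away. KDR (KIDARI, AT1G26945), a small helix-loop-helix protein of light signalling, had 72.2, 53.6 and 71.5 FPKM against 13.0, 11.4 and 7.32 (log2 fold change 2.55, limma adjusted p = 0.00193), with the peak chr1:9349956-9350488 at 1232 bp. Neither gene had a peak within 1000 bp, and the groups did not overlap in either.

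ST2A, TT7 and CYP707A1, which encode enzymes, were among the 12 as well. ST2A (AT5G07010), a sulfotransferase of hydroxyjasmonate, had 39.3, 39.0 and 43.9 FPKM in the induced libraries, against 5.56, 5.20 and 4.22 in brc1-2 (log2 fold change 2.80). TT7 (AT5G07990), the flavonoid 3'-hydroxylase, had 52.3, 48.8 and 43.2 against 7.40, 7.69 and 7.40 (log2 fold change 2.53). CYP707A1 (AT4G19230), which breaks down ABA, had 39.1, 35.9 and 42.7 against 10.2, 7.21 and 9.97 (log2 fold change 2.00). In each of these the induced libraries lay above all brc1-2 libraries, and limma adjusted p-values were 0.000236, 0.000186 and 0.00107. All 3 also had a peak within 1000 bp. Their distal peaks lay 2163, 2734 and 2841 bp away, and CYP707A1 had 3 of them in its gap of 13257 bp. The remaining rises were AT1G49310 (log2 fold change 2.74), BRG2 (2.51), AT1G64700 (2.46), AT4G30180 (2.14) and FMO GS-OX4 (2.02), a glucosinolate S-oxygenase that has close relatives between which reads may be split. Of these 5, AT1G64700 and AT4G30180 had no peak within 1000 bp.

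**Figure D4:**
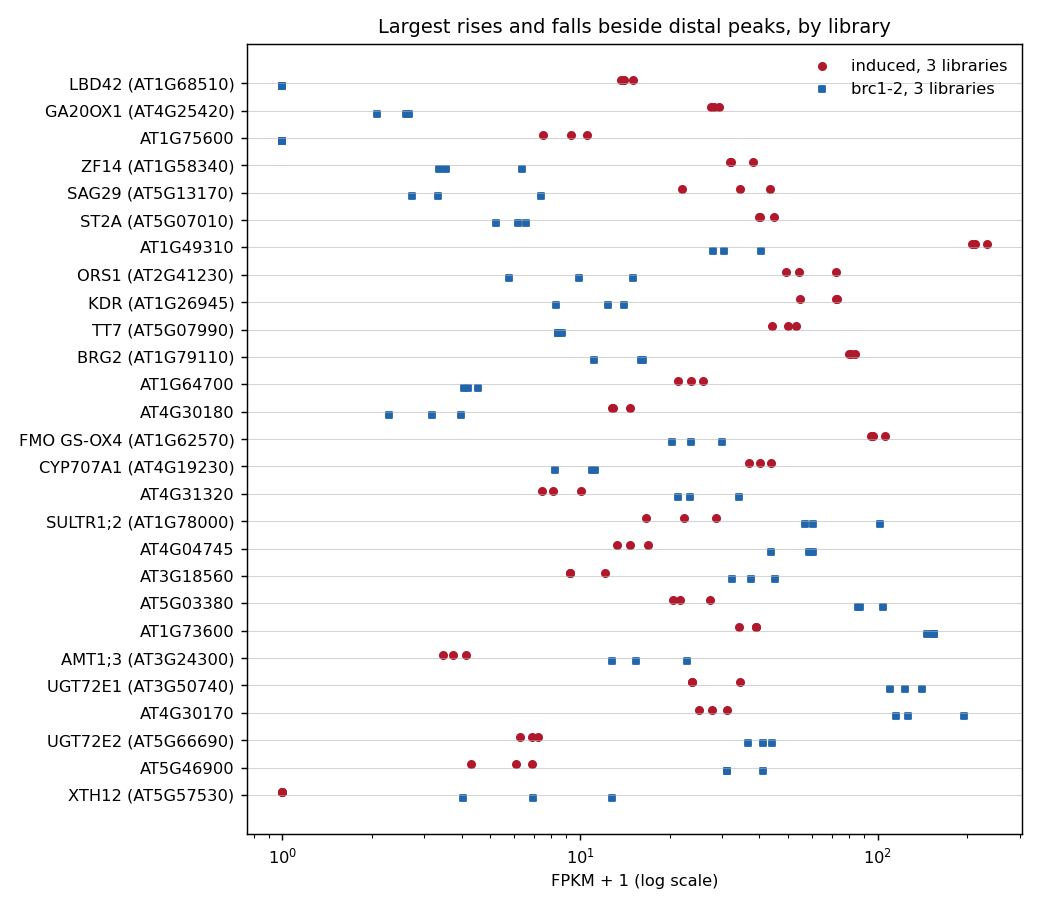
FPKM + 1 on a log axis in each of the 3 induced (red circles) and 3 brc1-2 (blue squares) libraries, for the genes with the largest rises (top) and falls (bottom) beside distal peaks, BRC1 left out. The symbols of the 2 groups do not overlap in any gene shown, which the rule for naming required; LBD42, AT1G75600 and XTH12 were listed at 0 in 1 group.

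The 8 largest falls beside a peak no farther than 3000 bp were likewise of genes with different known roles. XTH12 (AT5G57530), a xyloglucan-remodelling enzyme, was listed at 0 in the induced libraries and had 11.8, 5.93 and 3.05 FPKM in brc1-2, at least 20.6-fold lower against the smallest amount listed (limma adjusted p = 0.00947). UGT72E1 (AT3G50740), a glucosyltransferase of lignin precursors, had 22.7, 22.8 and 33.5 FPKM in the induced libraries, against 122.9, 109.2 and 139.8 in brc1-2 (log2 fold change -2.21, SE 0.18, limma adjusted p = 0.00141). Its peak, chr3:18859223-18859698, lay 2577 bp away. On the other side, at 2378 bp, BEH1 (AT3G50750), a relative of the brassinosteroid factor BZR1, was also lower (log2 fold change -1.02, limma adjusted p = 0.0116).

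The ammonium transporter AMT1;3 (AT3G24300) had 3.14, 2.47 and 2.74 FPKM in the induced libraries, against 11.8, 14.4 and 21.8 in brc1-2 (log2 fold change -2.13, limma adjusted p = 0.00316). SULTR1;2 (AT1G78000), which takes up sulfate, had 21.3, 15.7 and 27.6 FPKM against 100.5, 55.9 and 59.7 (log2 fold change -1.68, limma adjusted p = 0.0141), and its call was lost without induced library 1 (adjusted p = 0.0562). The groups did not overlap in either gene. The remaining falls were AT4G30170 (log2 fold change -2.34), AT3G18560 (-1.91), AT4G04745 (-1.86) and AT4G31320 (SAUR37, -1.60), a gene of the auxin-responsive SAUR family. Of the 8 falls, SULTR1;2 was the one with a peak within 1000 bp. Of the root markers given above, CASP1 was called lower, while PIN2 and COBL9 were not called. The summed level of these markers was 33.1 ± 1.22 FPKM in the induced libraries and 68.4 ± 12.9 in brc1-2 (SD, n = 3 each). The part of root tissue in these falls was not tested.

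Large changes were also found in genes over 3000 bp from their nearest distal peak, a distance counted here from the gene itself. SAG29 (SWEET15, AT5G13170), a sugar transporter known from senescence, had 33.5, 42.5 and 21.1 FPKM in the induced libraries, against 6.37, 2.33 and 1.73 in brc1-2 (log2 fold change 2.98, SE 0.43, limma adjusted p = 0.00819). Its nearest distal peak, chr5:4189205-4189699, was 6146 bp away in a gap of 13265 bp with 2 distal peaks. The gene across that gap, NAC083 (AT5G13180), a NAC transcription factor also called VNI2, was higher as well, with 162.3 ± 7.97 FPKM against 86.5 ± 11.2 (SD, n = 3 each). ZF14 (AT1G58340), also named ZRIZI, had 31.2, 30.9 and 37.1 FPKM against 2.36, 2.54 and 5.40 (log2 fold change 3.00), with a distal peak at 5720 bp. AT1G75600 had 6.52, 8.33 and 9.59 FPKM and was listed at 0 in brc1-2, at least 9.15-fold higher, with a peak at 4181 bp. The ZF14 peak was closer to AT1G58350 (1757 bp), and the AT1G75600 peak was closer to AT1G75590 (2716 bp). SAG29, NAC083, ZF14 and AT1G75600 each had a peak within 1000 bp too.

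The 4 largest falls past 3000 bp had no close peak. AT5G46900 had 3.30, 5.08 and 5.89 FPKM in the induced libraries, against 40.3, 30.2 and 30.2 in brc1-2 (log2 fold change -2.60, limma adjusted p = 0.00141), with its peak at 5133 bp. UGT72E2 (AT5G66690), a relative of UGT72E1, had 6.20, 5.92 and 5.27 FPKM against 43.2, 35.8 and 40.2 (log2 fold change -2.58, limma adjusted p = 0.000236). AT1G73600 and AT5G03380 fell with log2 fold changes of -2.02 and -1.999, at 4544 and 3312 bp. In all of these 4 genes another locus was closer to the peak. Reads may be split between UGT72E2 and its close relatives.

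No flanking gene was called for 577 of the 1043 distal peaks. At least 1 flanking gene was higher for 266 distal peaks (25.5%) and lower for 219 (21.0%). Counted by gap, since peaks of a gap share their genes, 178 of 783 gaps had a higher and 160 a lower neighbour. Both neighbours were tested in 511 gaps. Both were higher in 21, both lower in 14, and in 14 they went in opposite directions. Counted gene by gene, 184 of the 1207 tested flanking genes were higher and 169 lower. A gap has 2 neighbours, so shares per gap or per peak cannot be set beside the shares of single genes. The counts to be found if neighbours changed independently were not computed. Whether neighbours change together or apart more often than that was not tested. For 55 peaks neither neighbour was tested, and these lay at a median of 2380 bp.

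Among the 14 opposite pairs, AT4G30170 and AT4G30180 share the peak chr4:14766388-14766855, which was 468 bp wide in a gap of 4308 bp. At 1995 bp on 1 side, AT4G30170 had 26.8, 24.1 and 30.2 FPKM in the induced libraries, against 194.7, 113.9 and 125.6 in brc1-2 (log2 fold change -2.34, SE 0.21, limma adjusted p = 0.00213). At 2314 bp on the other side, AT4G30180 had 11.9, 13.7 and 11.8 FPKM against 2.17, 2.97 and 1.28 (log2 fold change 2.14, SE 0.21, limma adjusted p = 0.00278). The groups did not overlap in either gene, and neither had another peak within 1000 bp. At BRC1 itself, the peak chr3:6392567-6392840 lay 7041 bp from the BRC1 locus and 1206 bp from AT3G18560. AT3G18560 had 8.28, 8.24 and 11.1 FPKM in the induced libraries, against 36.7, 31.3 and 44.1 in brc1-2 (log2 fold change -1.91, limma adjusted p = 0.00183), while the BRC1 level in the induced line includes the transgene.

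Some genes known from the BRC1 pathway lay beside distal peaks. As a background for this list and those below, all distal peaks had 1505 flanking genes, beside 32883 annotated loci. The share of all genes with a peak within 1000 bp was not counted here. These lists were chosen with earlier results of these data known, so their shares of rises and of peaks are no independent support. Of 10 genes that published work ties to BRC1 or to dormant buds, all had a peak within 1000 bp or beside them, and 5 flanked a distal peak: HB21, HB40, HB53, NCED3 and NAP. Of the 10, 8 were tested and 6 were higher, beside 7.37% of all tested genes (median log2 fold change 1.097, beside 0.04). None was lower in limma, also at an unadjusted p under 0.05. NCED3 (AT3G14440), the rate-limiting enzyme of ABA synthesis, had 7 distal peaks beside it, 2 on 1 side and 5 in the 16188 bp gap to CID9. It had 4.24, 4.04 and 5.35 FPKM in the induced libraries, against 2.05, 1.22 and 2.45 in brc1-2, with no overlap (log2 fold change 0.95, SE 0.21, limma adjusted p = 0.032). The call was lost without any 1 induced library and without brc1-2 library 1 or 2 (adjusted p of 0.0593 to 0.104). The nearest of its distal peaks, chr3:4829217-4829527, lay 1916 bp away, and NCED3 had a close peak as well. CID9 (AT3G14450), at the other end of the gap, was also higher (log2 fold change 0.35, limma adjusted p = 0.026), a call that was lost without any 1 library (adjusted p of 0.0506 to 0.0823).

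The 3 homeodomain-leucine zipper genes of the pathway were expressed at low levels. HB40 (AT4G36740) had 4 distal peaks in its gap of 8196 bp, the nearest at chr4:17318911-17319349, 2756 bp away, and no peak within 1000 bp. It had 4.16, 3.62 and 2.84 FPKM in the induced libraries, against 0, 0 and 1.17 in brc1-2 (log2 fold change 1.80, SE 0.37, limma adjusted p = 0.0251), a call that was lost when any 1 induced library or brc1-2 library 1 or 2 was left out (adjusted p of 0.0609 to 0.104). HB53 (AT5G66700) had 2.70, 2.27 and 1.62 FPKM against 2.15, 0 and 0, where the groups overlap (log2 fold change 1.11, limma adjusted p = 0.206). Without brc1-2 library 1 it passed the threshold (log2 fold change 1.66, adjusted p = 0.0366). Its distal peak, chr5:26631042-26631567, lies 3015 bp from HB53 and 4512 bp from UGT72E2, the gene given above as lower. HB21 (AT2G18550) flanks chr2:8053195-8053655 and chr2:8054010-8054490, and the nearer lay 2212 bp away. It had 1.00, 0 and 0.735 FPKM in the induced libraries, was listed at 0 in brc1-2 and was too low to be tested. NAP (AT1G69490), a NAC factor of senescence, had 0.916, 0 and 1.53 FPKM against 0.767, 0 and 0 and was likewise not tested.

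Over the whole list of 17 class I homeodomain-leucine zipper genes, 14 were tested, with 3 higher, 5 lower and a median log2 fold change of -0.12, beside 7.37%, 8.86% and 0.04 over all tested genes. The 6 beside a distal peak were HB7, HB12, HB16, HB21, HB40 and HB53. HB7 (AT2G46680), an ABA-responsive member, had 32.03, 32.95 and 37.97 FPKM in the induced libraries, against 22.8, 9.44 and 9.67 in brc1-2 (log2 fold change 1.35, limma adjusted p = 0.0428). This call was lost in limma without the trend (0.0546), and without any 1 of the 3 induced libraries or brc1-2 library 2 or 3 (adjusted p of 0.105 to 0.118). HB16 (AT4G40060) was lower, at 31.5 ± 0.257 FPKM against 39.0 ± 1.97 (SD, n = 3 each; limma adjusted p = 0.0234). It lost its call without any 1 induced library or brc1-2 library 1 or 2 (0.0588 to 0.0942). HB12 had a log2 fold change of -0.31 (limma adjusted p = 0.38).

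Of 22 ABA genes, 21 were tested and 13 were higher, with a median log2 fold change of 1.08, and none was lower in limma, with 1 at an unadjusted p under 0.05. Over all tested genes 7.37% were higher and 8.86% lower, with a median of 0.04. This list too was chosen with earlier results known, so the comparison is not independent of the data. Most had a peak within 1000 bp (16), and 4 flanked a distal peak: NCED3, CYP707A1, CYP707A3 and HAI1. HAI1 (AT5G59220), a protein phosphatase induced by ABA, had 3 distal peaks in its gap of 4935 bp, the nearest at chr5:23898039-23898938, 1870 bp away. It had 7.76, 8.33 and 6.92 FPKM in the induced libraries, against 3.15, 1.77 and 0.881 in brc1-2 (log2 fold change 1.64, SE 0.29, limma adjusted p = 0.0159). The groups did not overlap, and the call was lost without induced library 1 (adjusted p = 0.0653), induced library 2 (0.0664) or brc1-2 library 2 (0.0521). CYP707A3, with its distal peak at 7945 bp, had a log2 fold change of -0.17 (limma adjusted p = 0.486). Thus 3 of the 4 genes beside distal peaks were higher, and these 3 had a close peak as well, as CYP707A3 did.

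**Figure D5:**
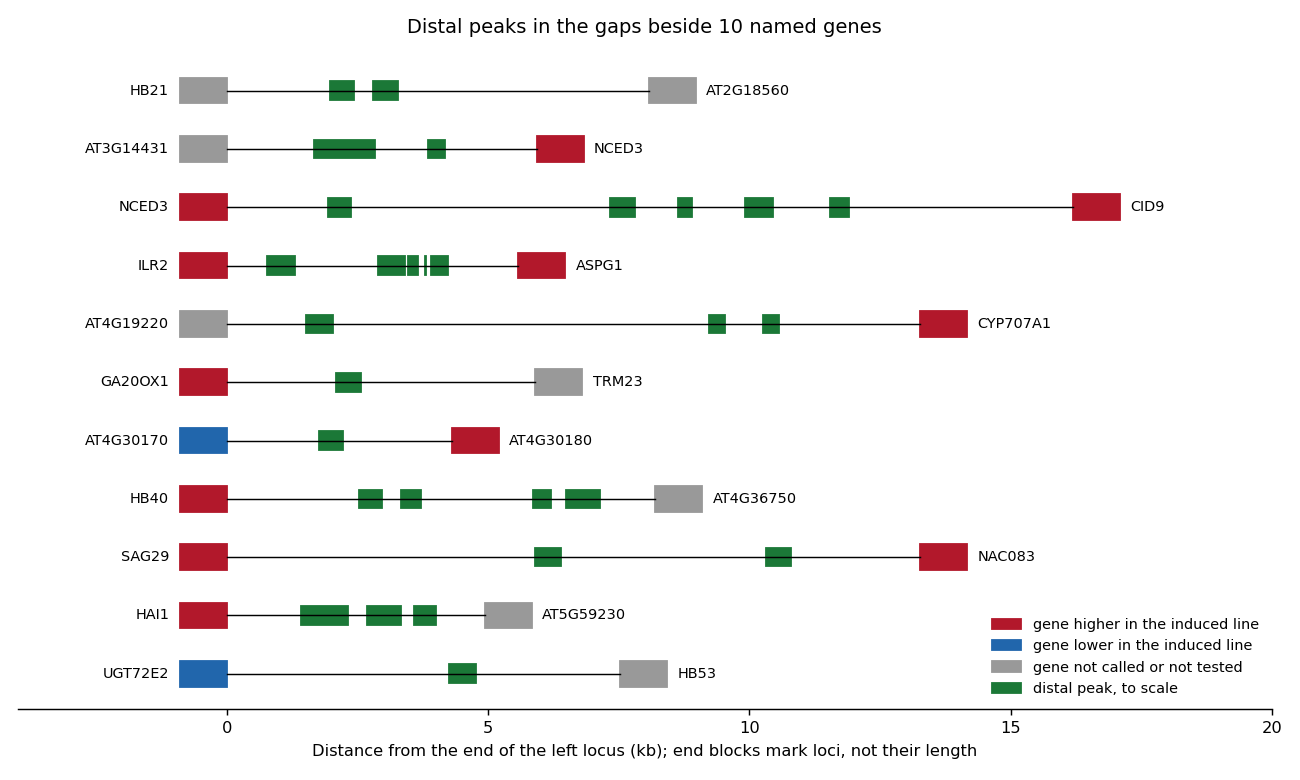
Gaps beside 10 named genes, drawn to scale in kb from the end of the left locus; green bars are distal peaks at their width, and the end blocks mark the flanking loci without their length, red when higher, blue when lower and grey when not called or not tested. NCED3 has 2 distal peaks on its left and 5 on its right, HB40 has 4, and the peak between AT4G30170 and AT4G30180 has a lower gene on 1 side and a higher gene on the other.

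Rows of distal peaks marked a few gaps. At least 4 distal peaks were found in 21 gaps, and 4 of these 21 were flanked on both sides by loci without tested RNA, among them the gap with 8 peaks. The gap between AT3G18485 (ILR2) and ASPG1 (AT3G18490) held 5 distal peaks within 5576 bp, at 1041 to 4072 bp from AT3G18485. Neither gene had a peak within 1000 bp. ASPG1, an aspartic protease of guard cells, had 163.9, 139.4 and 163.2 FPKM in the induced libraries, against 70.1, 60.7 and 48.9 in brc1-2 (log2 fold change 1.37, SE 0.15, limma adjusted p = 0.00343). AT3G18485 had 5.17, 4.93 and 4.71 FPKM and was listed at 0 in brc1-2, a rise of at least 16.2-fold (limma adjusted p = 0.00114). These genes lie on the same chromosome as BRC1, with loci starting at 6341918 and 6348755 where BRC1 starts at 6383508. For these genes and for AT3G18560, the induced transgene and a difference between the 2 lines in the sequence around BRC1 cannot be told apart.

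Other gaps of this kind had rising genes on both sides. AT5G11090 and SYTD (AT5G11100), a synaptotagmin, flank 5 distal peaks and were higher by log2 fold changes of 0.59 and 0.99. GTE7 (AT5G65630), a bromodomain protein, and bHLH093 (AT5G65640) flank another 5 and were higher by 0.40 and 0.66. GTE7 lost its call without any 1 library other than brc1-2 library 2 (limma adjusted p of 0.065 to 0.107), and bHLH093 lost it without any 1 induced library or brc1-2 library 2 (0.0659 to 0.0826). HAT22 (AT4G37790), a class II homeodomain-leucine zipper gene, and XTH7 (AT4G37800) share 4 distal peaks and went apart, at 0.73 and -0.36. The call of XTH7 was lost in limma without the trend (0.0579), and without any 1 library other than induced library 3 (0.0663 to 0.15). Falls were found beside such gaps too: AT2G41380, beside 4 distal peaks, had a log2 fold change of -1.32, and KNAT3 (AT5G25220), a KNOX homeobox gene beside 5, had -0.38. Limma adjusted p-values of AT5G11090, SYTD, HAT22, KNAT3 and AT2G41380 were 0.00255, 0.00628, 0.00466, 0.00901 and 0.011.

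The 4 genes of the BOI family, RING-type proteins known to bind DELLA repressors of gibberellin response, all lay beside distal peaks. They were picked out after their values were seen. BRG3 (AT3G12920) had 5 distal peaks beside it, among them the widest, and 66.4, 64.7 and 66.8 FPKM in the induced libraries against 21.2, 19.1 and 18.0 in brc1-2 (log2 fold change 1.72, SE 0.07, limma adjusted p = 0.00028). BRG2 (AT1G79110) had 2, the nearer at chr1:29762397-29763081, 2035 bp away, and 78.8, 80.2 and 82.7 FPKM against 10.1, 15.3 and 15.1 (log2 fold change 2.51, limma adjusted p = 0.000775). In both genes the groups were far apart and a peak also lay within 1000 bp. BRG1 (AT5G45100) had 5 distal peaks and 33.6 ± 0.657 FPKM against 26.9 ± 2.66 (SD, n = 3 each; limma adjusted p = 0.0512), with no peak within 1000 bp. Its groups did not overlap, and it passed the threshold without brc1-2 library 1 (adjusted p = 0.025), with a filter of 5 FPKM (0.0435) and with pieces weighted by length (0.0458). BOI (AT4G19700, listed as RING in RefSeq) had 6 distal peaks in the 10147 bp gap beside it and a log2 fold change of 0.12 (limma adjusted p = 0.513).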

How the data were processed

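RNA was measured in 3 induced and 3 brc1-2 libraries, grouped by their titles. The deposited tables give FPKM with confidence bounds per assembled piece, in Cufflinks layout per the file headers; the submitters' processing notes name Bowtie, TopHat, Cuffdiff, Bowtie2, MACS2 and TAIR10, with no versions or settings. The FPKM of all pieces of a gene was summed, and an unlisted gene was set to 0. Such a gene is given above as listed at 0, which means below the smallest listed amount and not a measured absence. The smallest listed piece held about 9.59 fragments, derived from the confidence bounds, and folds against a group at 0 use that amount as the floor per library. The 21038 genes that reached 1 FPKM in 3 or more libraries were fitted as log2(FPKM + 1) with limma 3.58.1 in R 4.3.3 (eBayes with trend, no covariates), with Benjamini-Hochberg adjustment over all tested genes and 0.05 as the threshold. Because 1 is added before the log, fold changes of weakly expressed genes listed in every library are understated. Where a library does not list a gene, the 0 stands for an unknown amount below the floor. The fold change can then be overstated or understated. An exact permutation test of 3 against 3 cannot go below p = 0.1.

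The deposited peak list holds positions of 4227 peaks with no score, height or p-value and is, by its name, the overlap of anti-GFP samples 1 and 2. ChIP library 3 and all Input libraries are not used here, so no peak value could be compared between libraries. Coordinates are 1-based in TAIR10. Loci were the 33078 table rows on chromosomes 1 to 5, of which 195 merged rows were given gene names by their order in RefSeq TAIR10.1; 11 distal peaks lie beside such a row. That table also gave symbols and gene types, with none of its coordinates printed. No genome sequence was used here, so no motif was searched and no sequence is shown.

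Genes named are BRC1; among flanking genes past the threshold with groups that do not overlap and a mean of at least 5 FPKM in the higher group, the 12 largest rises and 8 largest falls with a distal peak up to 3000 bp and the 4 of each beyond; the nearest genes of the 5 farthest, 3 widest and the peaks next to 1000 bp; and list genes beside a distal peak. Genes across a peak, beside gaps with 4 or more distal peaks, and the BOI family were added after values were seen. The members and the lists were chosen with earlier results of these data known.

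The fit was tested on simulated libraries of the real genes. With no change, 0 of 20743 genes were called; 118 of 196 genes with a log2 change of 1 and 172 of 194 with a log2 change of 2 were recovered, with 7 and 9 unchanged genes called. A 2-fold change was thus often missed in the simulation. Far fewer genes changed there than were called in the data, so recovery in the data may differ. Alternatives covered the pseudocount, the filter, length weighting, the trend, a replicate block, leaving out each library, the distance rule, peak width and the loci used. Python 3.11.15, numpy 2.4.6 and pandas 2.3.3 were used.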

Additional observations from a re-analysis of the deposited data

How the results depend on the processing

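The count of distal peaks depends on the distance rule. At more than 500 bp there were 1761 peaks (41.7% of the list), with 195 higher and 167 lower nearest genes and 427 peaks beside a higher gene. At more than 2000 bp there were 405 (9.58%), with 48 higher, 48 lower and 104 peaks, and at more than 3000 bp 166 (3.93%), with 22 higher, 23 lower, 37 peaks and a median log2 fold change of -0.0259. Among peaks at or above the median width 559 were distal (26.4% of those peaks), with 56 lower genes, a median of 0.0508 and 172 peaks beside a higher gene. The distal share was 20.1% from the peak edge and 27.1% with protein-coding loci only. Higher genes numbered 184 with both neighbours counted and 51 without genes that have a closer peak.

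Leaving out 1 library gave 1609 to 2827 called genes, 74 to 118 higher and 47 to 84 lower nearest genes, medians of -0.0102 to 0.0538, and 166 to 263 peaks beside a higher gene. In each of these fits the higher share of nearest genes was above that of all tested genes. With the replicate number as a block, 2989 genes were called, with 104 higher and 98 lower nearest genes, and HB40, HB7, HB16, GTE7 and XTH7 were not called (adjusted p of 0.0539 to 0.0891). Samples of the same number deviated together with correlations of 0.082, 0.060 and 0.193, and 4 of 6 libraries correlated best with their own number, so the numbers were not taken as pairs. Of the named genes' values under alternatives, 741 kept their direction and side of the threshold, 74 lost and 6 gained a call, and DGR2 (AT5G25460), which was not called, ranged from -0.140 to 0.001 with 1 library left out, changing sign without brc1-2 library 1. The causes were not tested. Distances shifted by 1 bp gave 1044 distal peaks, and this setting and the fit without gaps of 3 or more distal peaks were chosen after seeing the data. The motif search and the fit by gene start were not run. Peak height and ChIP depth per peak were not used here, so binding strength at distal peaks cannot be ranked.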
